A study of Mus musculus with 17 samples.

Results

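The 36 genes described here encode parts of the lysosome and 2 of its transcriptional regulators, and they were picked by symbol from the 24015 genes of the deposited tables. All 36 symbols were found, and all 36 passed the filter on low counts in every comparison. They comprise 8 membrane proteins, 8 proteases, 10 glycan-degrading enzymes (glycosidases and a sulfatase), 5 proteins of lipid breakdown and transport, 3 parts of the acidification machinery and the regulators Tfeb and Tfe3. The list rests on function and not on measured values, although it was drawn up when earlier results of these data were known.

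Lysosomes are the acidic organelles in which cells degrade endocytosed and autophagic material. A vacuolar proton pump (V-ATPase) acidifies the lumen, soluble hydrolases reach it through mannose 6-phosphate receptors and related sorting routes, and membrane proteins protect the limiting membrane and export the products. TFEB and TFE3, basic helix-loop-helix factors controlled by nutrient signalling, bind CACGTG-type sequences in the promoters of many of these genes. Extraembryonic endoderm, the tissue that lines the yolk sac, is known for heavy endocytosis and lysosomal digestion of maternal material.

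Messenger RNA of 17 cultures of CD-1 mouse cells was sequenced after Trizol extraction with the TruSeq mRNA kit. Mouse embryonic fibroblasts (MEF), the controls without reprogramming factors in their labels, had been passaged 3 times in MEF medium and gave 3 libraries. Stem cell lines of extraembryonic endoderm are called XEN cells, and iXEN cells are such lines induced with the reprogramming factors Oct4, Sox2, Klf4 and Myc (OSKM) named in the series title. Both kinds spent 10 passages in ESC medium. The last 5 passages followed in ESC medium (3 XEN and 4 iXEN libraries) or in XEN medium (3 XEN and 4 iXEN libraries). The labels number the XEN libraries 1, 2 and 7 and the iXEN libraries 1, 2, 6 and 9 in either medium, and values per library are given in that order. No further genotype or transgene is given for any group. Biological replicates are named in the design text, without saying how separately they were derived, so p-values measure the spread between these libraries only.

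The libraries held 20071567 to 45914262 counts in genes, and 3 counts corresponded to 0.0653 to 0.149 CPM (counts scaled to a common library total). Fibroblast markers (14 genes, summed CPM) reached 37782 to 53158 in MEF. In ESC medium the sums were 22.7 to 27.8 for iXEN and 29.2 to 7845 for XEN libraries, highest in XEN 1. In XEN medium they were 4.15 to 25.3 for XEN and 4.52 to 2406 for iXEN libraries, highest in iXEN 2. Collagen transcripts were also raised in iXEN 9 in XEN medium, where Col1a1 was at 391 CPM. Markers of extraembryonic endoderm (16 genes) summed to 1055 to 1482 CPM in MEF and to at least 5585 CPM in every XEN and iXEN library. That lowest value belonged to XEN 7 in ESC medium. Macrophages are rich in lysosomes, and their markers (17 of 18 symbols found) summed to 121 to 371 CPM in MEF and to at most 30.3 CPM in XEN and iXEN libraries, where Emr1 and C1qa had 0 counts in all 4 groups.

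Most lysosome genes were more abundant in iXEN cells in ESC medium than in MEF. Of the 36 genes, 23 rose and 4 fell at an adjusted p under 0.05 (edgeR quasi-likelihood test, Benjamini-Hochberg over all genes tested), and 9 did not pass. Over all genes tested, 46.7% passed in this comparison, 20.8% as higher and 25.9% as lower. The median log2 fold change was 1.04 for the 36 genes and 0.03 for all genes. The libraries of the 2 groups did not overlap for 22 genes on the higher side (23.3% of all genes) and for 6 on the lower side (31.3%).

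The same MEF libraries served as controls in 3 further comparisons. For XEN cells in ESC medium, 11 genes rose and 3 fell, with 25% of all genes passing (11.4% higher, 13.7% lower) and medians of 0.81 for the 36 genes and -0.03 for all genes. For XEN cells in XEN medium, 12 rose and 6 fell, with 47.5% of all genes passing (23% higher, 24.5% lower) and medians of 0.32 and 0.02. For iXEN cells in XEN medium, 7 rose and 3 fell, with 32.6% of all genes passing (17.7% higher, 14.9% lower) and medians of 0.11 and 0.06. In XEN medium the counts of lysosome genes were thus near the share of all genes that passed: 50% of the members in XEN cells and 27.8% in iXEN cells. In all 4 comparisons the medium and the passage number change along with the cell type, and these cannot be told apart. In bulk RNA, fewer cells of a type and less RNA per cell cannot be told apart either.

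The counts changed when single libraries were left out, which also makes the groups smaller. Against MEF, 20 of the 27 calls for iXEN cells in ESC medium held in each of the 7 fits that left out 1 library. For XEN cells in ESC medium the count of calls went from 14 to 2 when MEF 1, 2 or 3 was left out, while the share of all genes fell from 25% to 2.57%, 4.8% and 3.92%. It went to 23 (20 higher, 3 lower; 33.8% of all genes) without XEN 7. For iXEN cells in XEN medium it went from 10 to 6 without MEF 1 and to 5 without MEF 3 (12.5% and 12.6% of all genes), and to 16 (7 higher, 9 lower; 51.8% of all genes) without the 2 libraries with collagen transcripts. For XEN cells in XEN medium it went from 18 to 11 without any 1 of the MEF libraries (26.9% to 31.1% of all genes).

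**Figure D1:**
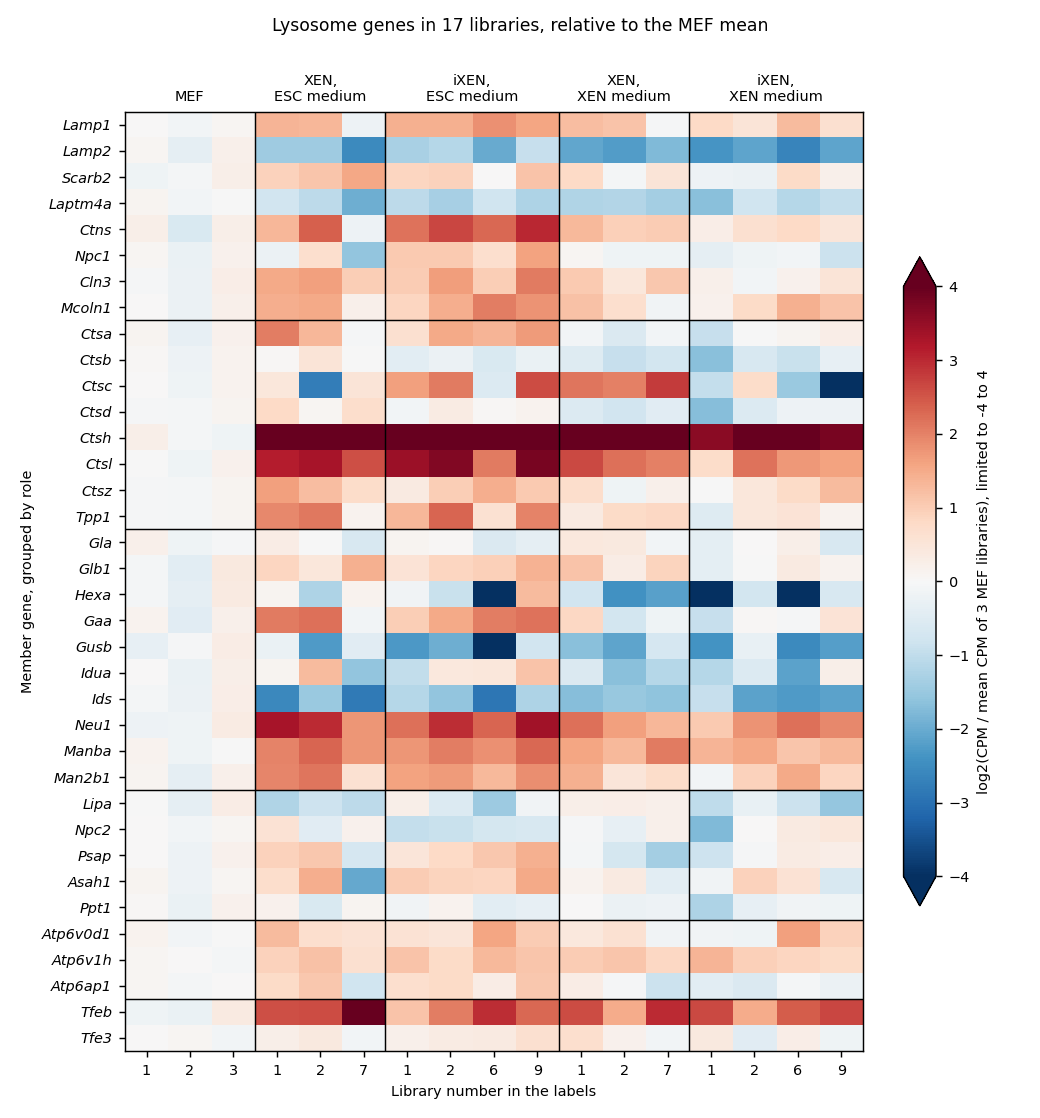
Heat map of the 36 lysosome genes (rows, grouped by role) in the 17 libraries (columns, numbered as in the labels); colour is log2 of a library's CPM over the mean of the 3 MEF libraries, limited to -4 to 4. Ctsh, Ctsl, Neu1, Manba and Tfeb are above the MEF mean and Lamp2, Laptm4a and Ids below it in all 14 XEN and iXEN libraries.

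**Figure D2:**
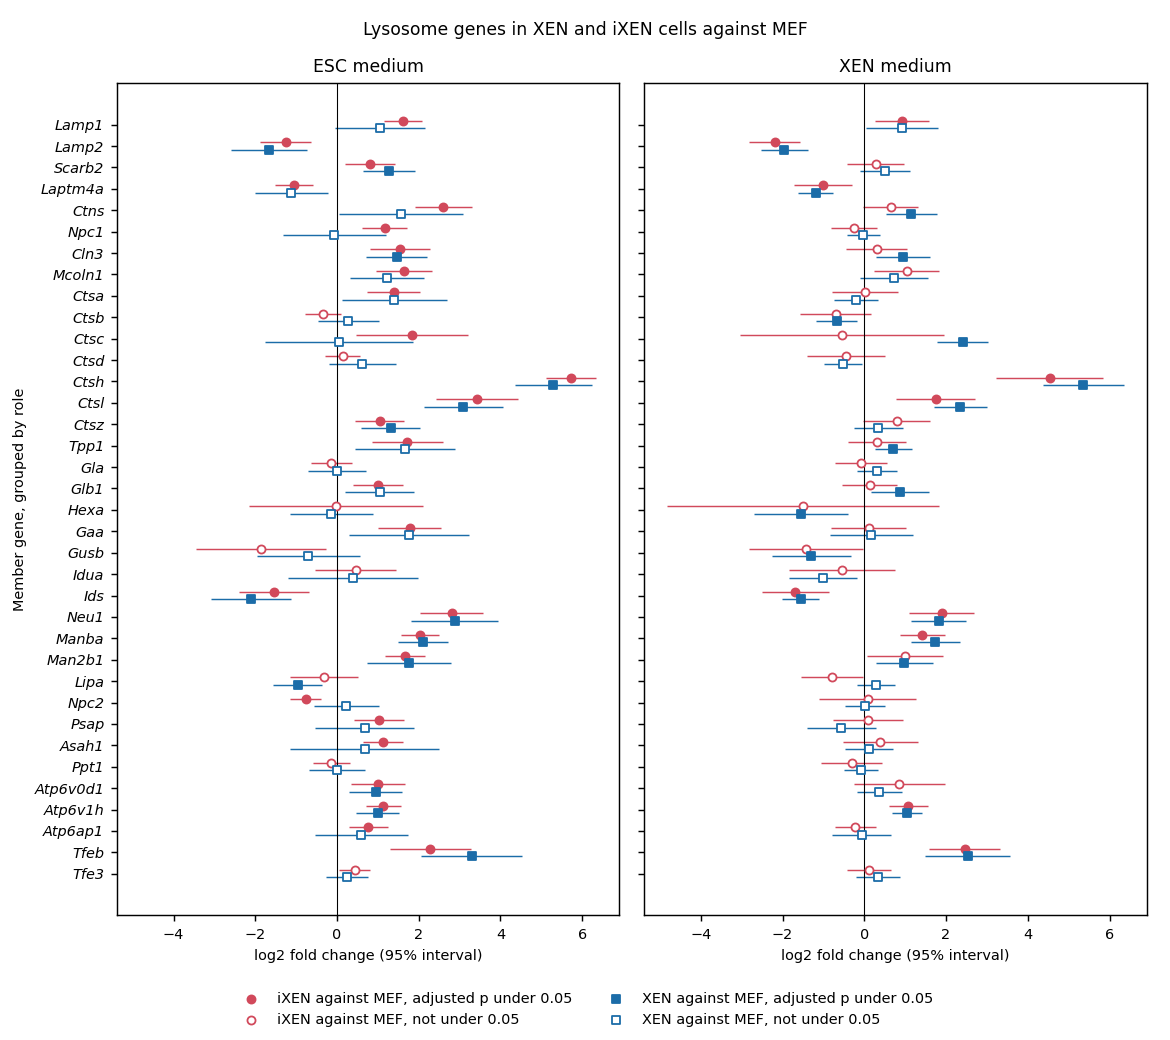
Log2 fold changes of the 36 lysosome genes against MEF with 95% intervals, for iXEN (red circles) and XEN cells (blue squares) in ESC medium (left) and XEN medium (right); filled symbols have an adjusted p under 0.05. In ESC medium 23 genes rose and 4 fell in iXEN cells (all genes 20.8% and 25.9%). In XEN cells in this medium 11 rose and 3 fell (11.4% and 13.7%). In XEN medium 7 rose and 3 fell in iXEN cells (17.7% and 14.9%). In XEN cells in XEN medium 12 rose and 6 fell (23% and 24.5%).

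The promoters of the members were searched for the letters that TFEB and its relatives bind. A promoter here is the 300 bases from 250 before to 50 after a gene's start (RefSeq, build GRCm38.p6, whereas the counts were made on mm9), and 31 of the 36 members had an entry. CACGTG, which reads the same on both strands, was present in 10 of the 31 (32.3%), against 8.09% of the promoters of 27025 genes and 11.5% of those of 10683 genes tested in iXEN cells in ESC medium against MEF. TCACGTG, searched on both strands and containing the former, was in 9 of 31 (29%), against 4.29% and 6.78%. Of the members with CACGTG, Ctsl lacked TCACGTG. A longer element that holds these letters was described from promoters of lysosomal genes, so their share here is not independent evidence. A match describes the letters and not binding, and does not say which factor would bind.

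Lamp1 carried 4 copies of CACGTG and Mcoln1, Cln3, Ctsa, Ctsd and Gla 2 each. The sequences below show the densest stretch, that of Lamp1, beside 3 other members that rose: Mcoln1, Cln3, and Ctsl as the member with the most reads in every library of ESC medium outside MEF. They are written 5′ to 3′ on the gene's strand, with CACGTG in capitals.
Lamp1, chr8:13159086-13159160 (+): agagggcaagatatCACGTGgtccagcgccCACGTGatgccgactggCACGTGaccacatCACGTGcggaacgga
Mcoln1, chr8:3500429-3500498 (+): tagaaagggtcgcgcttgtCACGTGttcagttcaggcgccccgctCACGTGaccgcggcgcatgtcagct
Cln3, chr7:126583340-126583369 (-): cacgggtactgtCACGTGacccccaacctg
Ctsl, chr13:64370739-64370768 (-): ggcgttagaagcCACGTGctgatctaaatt
The copies of Lamp1 begin 61, 45, 28 and 15 bases before the start, those of Mcoln1 71 and 45 bases, the Cln3 copy shown 121 bases and the Ctsl copy 236 bases before it.

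Of the 10 members with CACGTG, 8 rose and 0 fell in iXEN cells in ESC medium against MEF (median log2 fold change 1.46). Of the 21 members with a promoter entry and without these letters, 11 rose and 4 fell (median 0.76). Over all genes tested with a promoter entry, 22.8% of those with CACGTG and 20.3% of those without it rose, and 20.5% and 25.6% fell. For XEN cells in ESC medium, 3 of the 10 and 6 of the 21 rose, and 0 and 3 fell. Of all genes, 11.4% rose and 13.7% fell there. For XEN cells in XEN medium, 3 and 7 rose, and 0 and 5 fell (of all genes, 23% rose and 24.5% fell). For iXEN cells in XEN medium, 2 and 3 rose, and 0 and 3 fell (of all genes, 17.7% rose and 14.9% fell). In these further comparisons the shares of all genes were not split by the letters. Members with and without these letters were not tested against each other. Ctsh, the gene with the largest rise, had no promoter entry, and Neu1, Manba and Tfeb had an entry without the letters.

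Among the 8 membrane proteins, 6 rose and 2 fell in iXEN cells in ESC medium against MEF (all genes 20.8% and 25.9%). Those that rose were Lamp1, the regulator of enzyme trafficking Scarb2, the cystine exporter Ctns, the cholesterol exporter Npc1, Cln3 and the calcium channel Mcoln1. Lamp2 and Laptm4a fell. Scarb2 (0.82, adjusted p = 0.0341) lost its call when MEF 1, 2 or 3 or iXEN 1, 2 or 9 was left out (adjusted p up to 0.129).

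Lamp1, the most used marker of the lysosomal membrane, was at 659, 606 and 678 CPM in MEF and at 1752, 1722, 2312 and 1942 in iXEN cells in ESC medium. The XEN libraries in ESC medium were at 1667, 1631 and 563 CPM. In XEN medium, XEN cells were at 1520.1, 1419.7 and 620.5 CPM and iXEN cells at 1137, 923, 1572 and 1010.1. All iXEN libraries lay above MEF, whereas XEN 7 was below or within the MEF range in either medium. The log2 fold change against MEF was 1.61 (SE 0.21, adjusted p = 0.000359) in iXEN and 1.05 (SE 0.46, adjusted p = 0.136) in XEN cells in ESC medium. Without XEN 7 the XEN value was 1.5 (adjusted p = 0.00807). In XEN medium it was 0.92 in iXEN (adjusted p = 0.0419) and 0.92 in XEN cells (adjusted p = 0.0762). The iXEN call in XEN medium was lost without MEF 1, 2 or 3 or iXEN 6 or 9 (adjusted p up to 0.15), and without XEN 7 the XEN value in XEN medium was 1.24 (adjusted p = 0.00268).

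Lamp2, the second abundant LAMP protein and of which one isoform is a receptor of chaperone-mediated autophagy, moved the other way. MEF held 731, 539 and 789.6 CPM. ESC medium gave 254, 258 and 118 CPM in XEN and 281, 314, 171 and 361 CPM in iXEN cells, and XEN medium 164, 145 and 204 and 134, 161, 110.0 and 158. No XEN or iXEN library reached the lowest MEF value. Lamp2 fell by 1.25 on the log2 scale in iXEN cells in ESC medium (SE 0.27, adjusted p = 0.00558) and by 2.20 in XEN medium (SE 0.27, adjusted p = 0.00254). In XEN cells the values were -1.65 (adjusted p = 0.0278) and -1.95 (adjusted p = 0.00169), the first of which lost its call without MEF 1, 2 or 3 (adjusted p up to 0.127).

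Ctns showed the largest rise of the membrane proteins in iXEN cells in ESC medium. It was at 38.8, 21.4 and 38.9 CPM in MEF, 148, 212, 162 and 265 in iXEN and 82.7, 171 and 28.5 in XEN cells in ESC medium. The values in XEN medium were 39.5, 51.4, 57.7 and 45.8 CPM in iXEN and 80.6, 64.4 and 66.7 in XEN cells. The iXEN libraries in ESC medium stood above all MEF libraries and above all libraries in XEN medium, and XEN 7 in ESC medium lay within the MEF range. The log2 fold change against MEF was 2.61 (SE 0.31, adjusted p = 0.000232) in these iXEN cells and 1.15 (SE 0.26, adjusted p = 0.0134) in XEN cells in XEN medium. XEN cells in ESC medium gave 1.57 (adjusted p = 0.112, and 2.07 with adjusted p = 0.0129 without XEN 7), and iXEN cells in XEN medium 0.65 (adjusted p = 0.12).

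Mcoln1, which releases lysosomal calcium, was at 31.3, 26.4 and 36 CPM in MEF and 56.9, 86.3, 129 and 109 in iXEN cells in ESC medium. It was at 85.7, 89.1 and 36.3 CPM in XEN cells in ESC medium, 70.8, 50.2 and 28.2 in XEN cells in XEN medium and 35.3, 52.7, 83.7 and 68.8 in iXEN cells in XEN medium. The groups in ESC medium did not overlap with MEF, XEN 7 only just, and those in XEN medium did. It rose in iXEN cells in ESC medium by 1.64 on the log2 scale (SE 0.30, adjusted p = 0.00215), and the other 3 comparisons with MEF did not pass (adjusted p = 0.0568 in XEN cells in ESC medium, 0.126 in XEN cells and 0.0517 in iXEN cells in XEN medium). Without XEN 7 the XEN values were 1.64 (adjusted p = 0.00496) in ESC and 1.01 (adjusted p = 0.00818) in XEN medium, and without iXEN 1 the iXEN value in XEN medium was 1.25 (adjusted p = 0.00971).

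**Figure D3:**
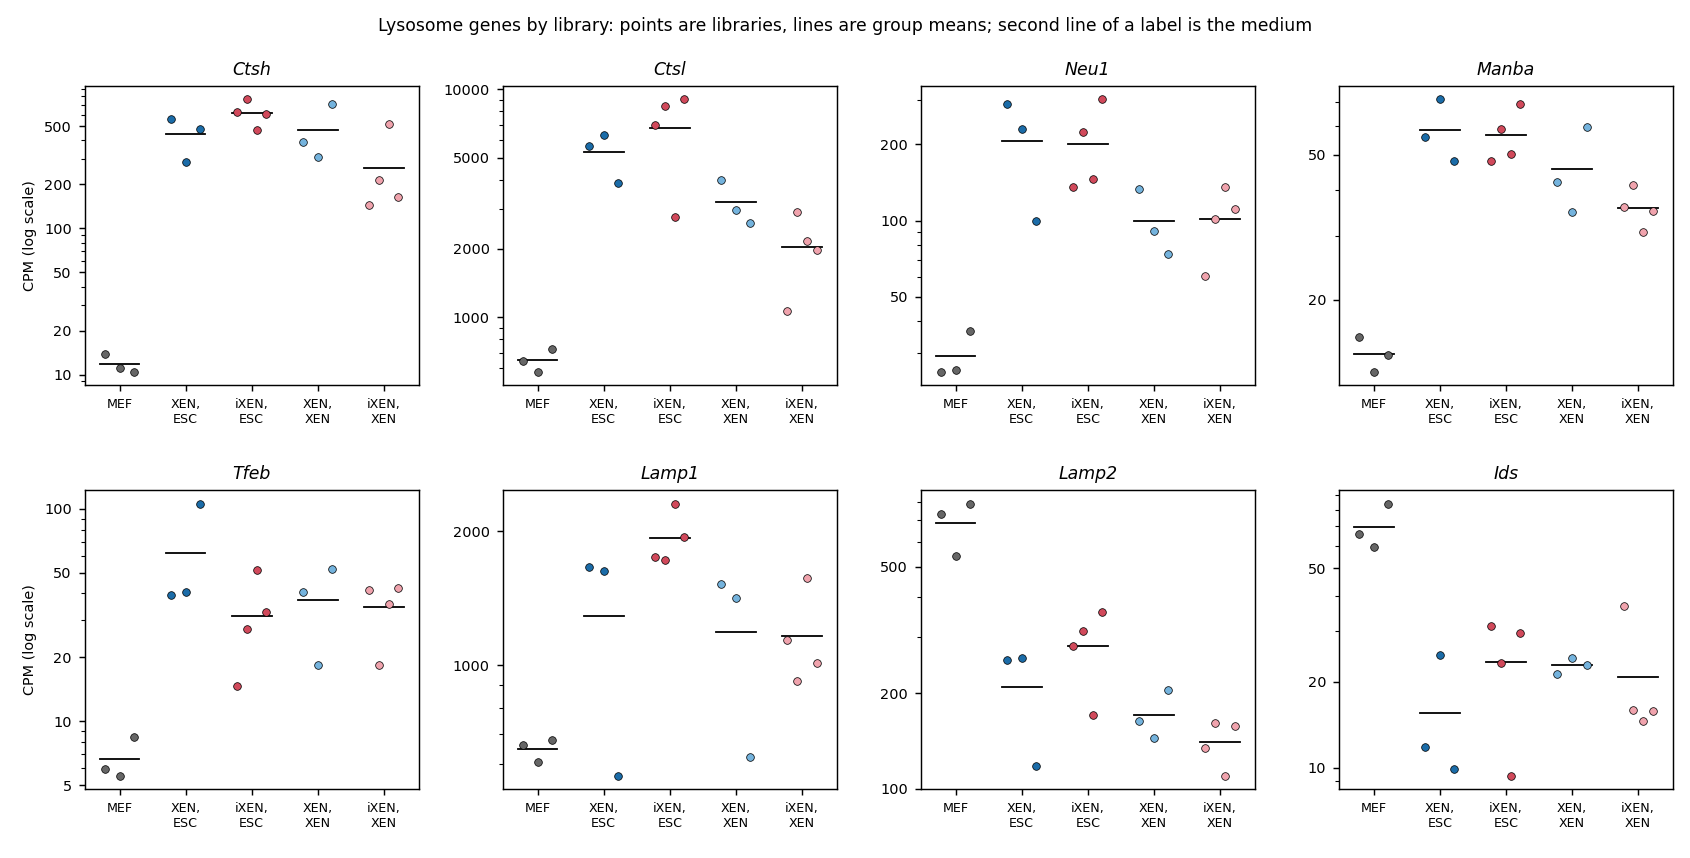
CPM (log scale, with its own range in each panel) of 8 lysosome genes in each library, with points for libraries and lines for group means; the axis labels give cell type over medium. Ctsh, Ctsl, Neu1, Manba and Tfeb are lowest and Lamp2 and Ids highest in the 3 MEF libraries, while Lamp1 overlaps through XEN 7.

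The proteases gave the largest differences. In iXEN cells in ESC medium, 6 of 8 rose against MEF, beside 20.8% of all genes. They were Ctsa, Ctsc, Ctsh, Ctsl, Ctsz and the tripeptidyl peptidase Tpp1. Cathepsin B (Ctsb, log2 fold change -0.34, 95% interval -0.77 to 0.09) and cathepsin D (Ctsd, 0.14, -0.29 to 0.57) did not pass.

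Ctsh, which encodes the aminopeptidase cathepsin H, was at 13.7, 11.2 and 10.5 CPM in MEF. In ESC medium it reached 563, 284 and 479 CPM in XEN and 622, 763, 470.4 and 606 in iXEN cells, and in XEN medium 389, 307 and 711 and 145, 215, 517 and 164. The lowest XEN or iXEN library was above the highest MEF library by a wide margin. In iXEN cells in ESC medium the log2 fold change was 5.74 (SE 0.27, adjusted p = 1.65e-06), a 53.3-fold difference. It was 5.30 in XEN cells in ESC medium (adjusted p = 0.0026), 5.36 in XEN cells in XEN medium (adjusted p = 0.000434) and 4.54 in iXEN cells in XEN medium (adjusted p = 0.00259). Each of these calls held in every fit that left out 1 library.

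Ctsl, the endopeptidase cathepsin L, was at 642, 578 and 724 CPM in MEF, 5668, 6321 and 3895 in XEN and 6996, 8429, 2744 and 9032 in iXEN cells in ESC medium. XEN medium gave 4002, 2965 and 2604 CPM in XEN and 1070.0, 2899, 2163 and 1963 in iXEN cells. All 14 XEN and iXEN libraries exceeded MEF, and iXEN 6 was the lowest of its group in ESC medium. The log2 fold change was 3.42 (SE 0.44, adjusted p = 0.000348) in iXEN and 3.09 (SE 0.40, adjusted p = 0.0067) in XEN cells in ESC medium. In XEN medium it was 1.74 in iXEN (adjusted p = 0.0191) and 2.35 in XEN cells (adjusted p = 0.00144). Leaving out MEF 1, 2 or 3 ended the calls for XEN cells in ESC medium (adjusted p up to 0.0594) and iXEN cells in XEN medium (up to 0.0855). Reads of Ctsl made up 6.72% to 7.07% of the summed CPM of the 36 genes in MEF and 17.2% to 38.5% in those of iXEN cells in ESC medium, a share that also depends on transcript length.

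Ctsc, the dipeptidyl peptidase that activates serine proteases of immune granules, was less even. MEF held 29.0, 25 and 31.4 CPM, and the iXEN libraries in ESC medium 87.9, 121, 19.4 and 172. XEN cells in ESC medium held 38.9, 4.16 and 40.9 CPM. In XEN medium the order of the cell types was the reverse, with 125, 114 and 198 CPM in XEN and 14.6, 47.6, 10.3 and 0.434 in iXEN cells. XEN 2 in ESC medium and iXEN 9 in XEN medium, the latter with 15 counts, were far below the others of their groups. Ctsc rose against MEF in iXEN cells in ESC medium (1.84, SE 0.60, adjusted p = 0.0339) and in XEN cells in XEN medium (2.41, SE 0.26, adjusted p = 0.00128). The first call was lost without MEF 1, 2 or 3 or iXEN 1, 2 or 9 (adjusted p up to 0.105). The other comparisons gave 0.05 (adjusted p = 0.964; 0.70 with adjusted p = 0.0335 without XEN 2) and -0.55 (adjusted p = 0.713).

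Of the other proteases, Tpp1 and Ctsz rose in iXEN cells in ESC medium by 1.72 and 1.04 on the log2 scale and Ctsa, the protective protein of neuraminidase and beta-galactosidase, by 1.38. Without MEF 1 the adjusted p of Ctsz was 0.0524. Ctsz rose in XEN cells in ESC medium (1.31, adjusted p = 0.0255, and up to 0.114 without MEF 1, 2 or 3), where Tpp1 did not pass (1.66, adjusted p = 0.0565; 2.15 with adjusted p = 0.00231 without XEN 7). Ctsa gave 1.40 there (adjusted p = 0.0985; 1.90 with adjusted p = 0.0127 without XEN 7). Ctsb fell in XEN cells in XEN medium (-0.68, adjusted p = 0.0372), a call that was lost without MEF 1, 2 or 3 or XEN 2 (adjusted p up to 0.125).

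Of the 10 glycan-degrading enzymes, 5 rose and 1 fell in iXEN cells in ESC medium (all genes 20.8% and 25.9%). Neu1, Manba, Gaa, the alpha-mannosidase Man2b1 and the beta-galactosidase Glb1 rose, and the iduronate sulfatase Ids fell. Gla, Hexa, Gusb and Idua did not pass. Glb1 (1.0, adjusted p = 0.0153) lost its call without MEF 1 or 2 (adjusted p up to 0.0594).

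Neu1, the sialidase that removes sialic acid from glycoproteins, was at 25.4, 25.8 and 36.5 CPM in MEF. The values were 289, 231 and 100 CPM in XEN and 135, 224, 146 and 301 in the iXEN libraries of ESC medium, and 134, 91.1 and 73.8 and 60.4, 101, 135 and 111 in XEN medium. No group overlapped with MEF. The log2 fold change was 2.81 (SE 0.34, adjusted p = 0.000241) in iXEN and 2.88 (SE 0.44, adjusted p = 0.00962; up to 0.062 without MEF 1, 2 or 3) in XEN cells in ESC medium. In XEN medium it was 1.89 (adjusted p = 0.00736) and 1.82 (adjusted p = 0.00364).

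Manba, the beta-mannosidase of N-glycan breakdown, was at 15.8, 12.7 and 14.0 CPM in MEF. XEN and iXEN cells held 56.1, 71.1 and 48.2 and 48.2, 58.9, 50.4 and 69.2 CPM in ESC medium and 42.2, 35 and 59.9 and 36, 41.3, 30.7 and 35.1 in XEN medium. The lowest of these values (30.7 CPM, iXEN 6 in XEN medium) was above the highest MEF library (15.8 CPM). Manba rose in iXEN cells by 2.03 in ESC medium (SE 0.20, adjusted p = 8.39e-05) and 1.42 in XEN medium (adjusted p = 0.00597), and in XEN cells by 2.11 (adjusted p = 0.0059) and 1.74 (adjusted p = 0.00296). These 4 calls held in every fit that left out 1 library.

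Gaa, the acid glucosidase that degrades glycogen, was at 277, 181 and 289 CPM in MEF and at 489, 708, 1021 and 1124 in iXEN cells in ESC medium. It was at 1045, 1143 and 230.3 CPM in XEN cells in ESC medium, with XEN 7 inside the MEF range. XEN medium gave 442, 151 and 221 CPM in XEN and 131, 255, 242 and 366 in iXEN cells, both overlapping with MEF. Gaa rose in iXEN cells in ESC medium (1.78, SE 0.34, adjusted p = 0.00283). XEN cells in the same medium gave 1.75 (adjusted p = 0.0792; 2.29 with adjusted p = 0.00445 without XEN 7), and the log2 fold changes in XEN medium were 0.17 and 0.10 (adjusted p = 0.753 and 0.855).

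Ids, which removes sulfate from heparan and dermatan sulfate and whose values were singled out after they were seen, was at 65.9, 59.1 and 84.2 CPM in MEF. XEN and iXEN cells held 11.8, 24.8 and 9.89 and 31.4, 23.3, 9.36 and 29.6 CPM in ESC medium and 21.3, 24.3 and 23.0 and 36.7, 15.9, 14.5 and 15.8 in XEN medium. All 14 values lay below MEF. Ids fell by 1.54 on the log2 scale in iXEN cells (SE 0.38, adjusted p = 0.00977) and by 2.11 in XEN cells in ESC medium (adjusted p = 0.0163; up to 0.0808 without MEF 1, 2 or 3). It fell in XEN medium by 1.69 in iXEN (adjusted p = 0.0118; 0.0575 without MEF 3) and by 1.56 in XEN cells (adjusted p = 0.00166).

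Hexa and Gusb, like Ids chosen for description after their values were seen, differed widely between libraries of a group. Hexa is the alpha subunit of the hexosaminidase that degrades ganglioside. It was at 153, 125 and 207 CPM in MEF, 175, 68.9 and 177 in XEN and 146, 87.9, 6.87 and 389.7 in iXEN cells in ESC medium. XEN medium gave 94.8, 30.0 and 35.6 CPM in XEN and 0.152, 96.9, 7.16 and 103 in iXEN cells. iXEN 6 was at the bottom of its group in ESC medium and again low in XEN medium, and iXEN 1 held 4 counts in XEN medium. Gusb, the beta-glucuronidase, was at 56.4, 68.1 and 86.1 CPM in MEF, 58.4, 14.6 and 50.9 in XEN and 14.4, 18.1, 2.44 and 41.2 in the iXEN libraries of ESC medium, and 22.1, 16.4 and 44.2 and 13.5, 56.8, 12.1 and 15.3 in XEN medium. iXEN 6 was again lowest in ESC medium, and iXEN 2 was highest in XEN medium. Hexa and Gusb fell in XEN cells in XEN medium (-1.55 and -1.30, adjusted p = 0.0382 and 0.0377), calls that were lost without MEF 1, 2 or 3 (adjusted p up to 0.125 and 0.121). Without XEN 2 both calls were lost too, as was that of Hexa without XEN 7 and that of Gusb without XEN 1. In iXEN cells Gusb did not pass in ESC medium (-1.86, adjusted p = 0.0562; 0.0132 without iXEN 6 and 0.0142 without iXEN 9) or in XEN medium (-1.42, adjusted p = 0.105; -2.29 with adjusted p = 0.00237 without iXEN 2).

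**Figure D4:**
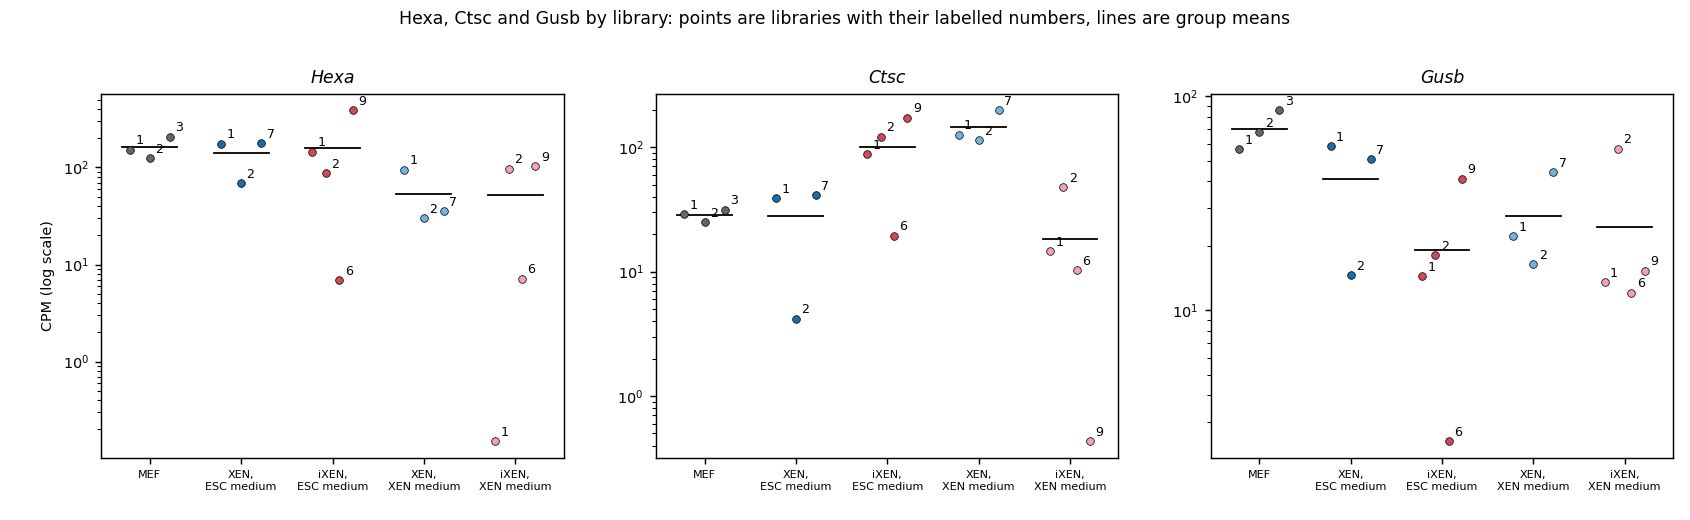
CPM (log scale) of Hexa, Ctsc and Gusb in each library, with points for libraries, their numbers in the labels beside them, and lines for group means. Hexa is at 6.87 CPM in iXEN 6 in ESC medium and 0.152 in iXEN 1 in XEN medium, and Ctsc at 0.434 CPM in iXEN 9 in XEN medium.

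Of the 5 genes of lipid breakdown, 2 rose and 1 fell in iXEN cells in ESC medium (all genes 20.8% and 25.9%). Asah1 and Psap rose, and Npc2 fell, with a median log2 fold change of -0.14 for the 5 genes. The acid lipase Lipa (-0.32, 95% interval -1.16 to 0.52) and the thioesterase Ppt1 (-0.14, -0.59 to 0.31) did not pass. In XEN medium none of the 5 passed in either cell type (all genes 47.5% in XEN and 32.6% in iXEN cells).

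Asah1, the acid ceramidase, was at 216, 172 and 212 CPM in MEF and 406, 374, 364 and 566 in iXEN cells in ESC medium, without overlap. XEN cells in ESC medium ranged from XEN 7 below MEF to XEN 2 above it (326, 554 and 48.2 CPM). XEN medium gave 222, 258 and 149.9 CPM in XEN and 183, 376, 302 and 129 in iXEN cells. The log2 fold change in iXEN cells in ESC medium was 1.13 (SE 0.22, adjusted p = 0.00308). It was 0.68 in XEN cells (adjusted p = 0.522; 1.26 with adjusted p = 0.0168 without XEN 7).

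Psap, the precursor of the saposins that present sphingolipids to their hydrolases, was at 1232, 1062 and 1384 CPM in MEF and 1725, 2149, 2614 and 3299 in iXEN cells in ESC medium. XEN cells in this medium held 2314, 2579 and 761 CPM. XEN medium gave 1172, 751 and 480.1 CPM in XEN and 693, 1178, 1532 and 1486 in iXEN cells, both of which overlapped with MEF. Psap rose in iXEN cells in ESC medium (1.03, SE 0.27, adjusted p = 0.0132; up to 0.0555 without MEF 1 or 2). XEN 7 was the lowest XEN library in either medium, and without it XEN cells in ESC medium gave 1.15 (adjusted p = 0.0211) in place of 0.68 (adjusted p = 0.343). In XEN medium the XEN value was -0.57 (adjusted p = 0.222), and without XEN 1 it was -0.93 (adjusted p = 0.0467).

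Npc2 binds cholesterol in the lumen and hands it to the membrane protein Npc1. It was at 422, 386 and 443 CPM in MEF and 214, 224, 253 and 267 in iXEN cells in ESC medium, where it fell by 0.76 on the log2 scale (SE 0.17, adjusted p = 0.00581). XEN cells held 618, 306 and 473 CPM in ESC and 405, 334 and 483 in XEN medium, and iXEN cells 122, 420.5, 541 and 566 in XEN medium. Those 3 groups overlapped with MEF. Its partner Npc1 rose in iXEN cells in ESC medium (1.16, SE 0.24, adjusted p = 0.00469), with log2 fold changes of -0.06, -0.03 and -0.26 in the other 3 comparisons, none of which passed. Lipa fell in XEN cells in ESC medium (-0.97, adjusted p = 0.0357), and this call was lost without MEF 1, 2 or 3 or XEN 1 (adjusted p up to 0.161).

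All 3 acidification genes rose in iXEN cells in ESC medium, beside 20.8% of all genes. Atp6v1h, a regulatory subunit of the cytosolic sector of the V-ATPase, was at 66.6, 64.2 and 59.7 CPM in MEF. It was at 121, 144 and 99.4 CPM in XEN and 139, 107, 158 and 138 in the iXEN libraries of ESC medium, and at 129, 138 and 112 and 164, 122, 116 and 108 in XEN medium. Every XEN and iXEN library exceeded every MEF library. The log2 fold changes were 1.13 (SE 0.19, adjusted p = 0.00143) in iXEN and 1.0 (adjusted p = 0.0224; up to 0.117 without MEF 1, 2 or 3) in XEN cells in ESC medium. They were 1.07 (adjusted p = 0.00881; up to 0.056 without MEF 1 or 3) and 1.05 (adjusted p = 0.00319) in XEN medium.

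Atp6v0d1, a subunit of the membrane sector that couples it to the rotor, was at 124, 104 and 113 CPM in MEF, 169.6, 158, 337 and 229.9 in iXEN and 276, 182 and 169.5 in XEN cells in ESC medium. XEN medium gave 104, 101, 356 and 215 CPM in iXEN and 151, 172 and 103 in XEN cells. Both groups in ESC medium stood above MEF, and those in XEN medium overlapped with it. The log2 fold changes in ESC medium were 1.01 in iXEN (SE 0.29, adjusted p = 0.0202) and 0.94 in XEN cells (adjusted p = 0.0474). Both calls were lost without MEF 1, 2 or 3 (adjusted p up to 0.0763 and 0.173), and the second also without XEN 1. XEN cells in XEN medium gave 0.37 (adjusted p = 0.213; 0.56 with adjusted p = 0.0245 without XEN 7).

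Atp6ap1, an accessory protein of pump assembly, was at 269, 245 and 258 CPM in MEF, 408, 436, 318 and 544 in iXEN and 434, 543 and 148 in XEN cells in ESC medium. The values in XEN medium were 194, 173, 246 and 219 CPM in iXEN and 319, 251 and 143 in XEN cells. It was above MEF in all iXEN libraries in ESC medium and below MEF in XEN 7 in both media. The iXEN rise in ESC medium was small (0.76, SE 0.21, adjusted p = 0.0166) and was lost without MEF 1, 2 or 3 (adjusted p up to 0.0638). Without XEN 7 the XEN value in ESC medium was 1.07 (adjusted p = 0.013) in place of 0.60 (adjusted p = 0.368).

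The 2 regulators differed. Tfeb was at 5.92, 5.53 and 8.42 CPM in MEF, 39.4, 40.5 and 106 in XEN and 14.7, 27.1, 51.5 and 32.5 in the iXEN libraries of ESC medium, and 40.8, 18.4 and 52.1 and 41.7, 18.5, 35.6 and 42.2 in XEN medium. All XEN and iXEN libraries lay above MEF, with XEN 7 highest among the XEN libraries in both media. The log2 fold change was 2.28 in iXEN (SE 0.43, adjusted p = 0.00291) and 3.30 in XEN cells in ESC medium (SE 0.51, adjusted p = 0.00986; up to 0.0583 without MEF 1, 2 or 3). In XEN medium it was 2.46 in iXEN (adjusted p = 0.00462) and 2.53 in XEN cells (adjusted p = 0.00503). Tfe3 was at 70.3, 73.6 and 64.5 CPM in MEF, 81.6, 91.0 and 64.6 in XEN and 80.6, 86.8, 89.8 and 109 in the iXEN libraries of ESC medium, and 111, 79.1 and 64.8 and 90.9, 50.7, 83.3 and 61.8 in XEN medium. It did not pass in any of the 4 comparisons, with log2 fold changes from 0.11 to 0.43 (95% interval of the latter 0.05 to 0.81; adjusted p = 0.0608, and 0.0407 without iXEN 6). Since TFEB and TFE3 act through nuclear entry, their transcript levels do not measure their activity. The CACGTG letters printed for Lamp1, Mcoln1, Cln3 and Ctsl are those these factors are known to bind, and no binding was measured.

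Between media, no lysosome gene passed in either cell type, and 0% of all genes did so. In iXEN cells, 32 of the 36 genes had negative log2 fold changes for XEN against ESC medium, with a median of -0.71 beside 0.08 for all genes. Over all genes, 45.8% of the values were negative. At an unadjusted p under 0.05, 16 members passed, beside 23.4% of all genes. For 14 members every iXEN library in XEN medium was below every iXEN library in ESC medium (5.81% of all genes), and for 0 members it was the reverse (6.21% of all genes). The 14 were Lamp1, Lamp2, Ctns, Npc1 and Cln3 of the membrane, Ctsa, Ctsd and Tpp1 of the proteases, Glb1, Gaa, Neu1 and Manba of the glycosidases, Psap and Atp6ap1. The summed CPM of the 36 genes was 15960 to 25122 in ESC medium and 6213 to 11654 in XEN medium, so that the 2 groups of iXEN libraries did not overlap.

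In the edgeR test between media, Ctns gave -1.99 in iXEN cells (95% interval -2.58 to -1.40, adjusted p = 0.0581). Npc1 gave -1.45 (-2.07 to -0.83, adjusted p = 0.0581). With DESeq2, 10 members and 11.9% of all genes passed, these 10 all lower in XEN medium: Lamp2, Ctns, Npc1, Cln3, Ctsa, Ctsl, Tpp1, Glb1, Gaa and Atp6ap1. One edgeR fit over all 5 groups gave 4 of these, Ctns, Npc1, Cln3 and Ctsl (2.16% of all genes). Without iXEN 6 in ESC medium 6 members passed (3.12% of all genes), and without iXEN 2 in XEN medium 2 did (2.66%). The summed level of extraembryonic endoderm markers differed along with the members: it was 35264 to 58282 CPM in ESC medium and 12126 to 26252 CPM in XEN medium, most of it from Lama1 and Col4a1. Of 15 such markers tested, 5 had positive log2 fold changes (Sox17, for example, 0.64), the median was -0.92 and 0 passed, 5 having an unadjusted p under 0.05. Their part in the result was not tested. Fibroblast markers were at 22.7 to 27.8 CPM in ESC medium and 4.52 to 2406 CPM in XEN medium, highest in iXEN 2. Without iXEN 2 and 9 in XEN medium the count of members that passed was still 0 (0.00753% of all genes passed).

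In XEN cells, 28 of the 36 genes had negative log2 fold changes for XEN against ESC medium (52% of all genes; medians -0.56 and -0.04), and 7 passed an unadjusted p under 0.05 (5.63% of all genes). For 5 members the libraries in XEN medium lay below those in ESC medium without overlap (5.13% of all genes), namely Scarb2, Ctsa, Ctsb, Ctsd and Ctsz. For Lipa and Ctsc they lay above (7.42% of all genes). Same-numbered XEN libraries deviated together, although the labels do not say that a number marks one line, and within numbers 1, 2 and 7 the members lower in XEN medium were 27, 29 and 17 of 36. Over these 3 numbers 13 members were lower each time and 3 were higher each time (Ctsc, Gla and Lipa). The counts by number have no share over all genes beside them and were not tested, so they do not set the members apart. Lipa was at 48.7, 63.5 and 54.3 CPM in ESC and 135, 136 and 129.6 in XEN medium (1.23, 95% interval 0.64 to 1.82, adjusted p = 0.8, and 0.0194 with DESeq2). The summed CPM of the 36 genes went from 12173 to 21026 in ESC medium to 9706 to 13150 in XEN medium, with XEN 7 in ESC medium inside the latter range.

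**Figure D5:**
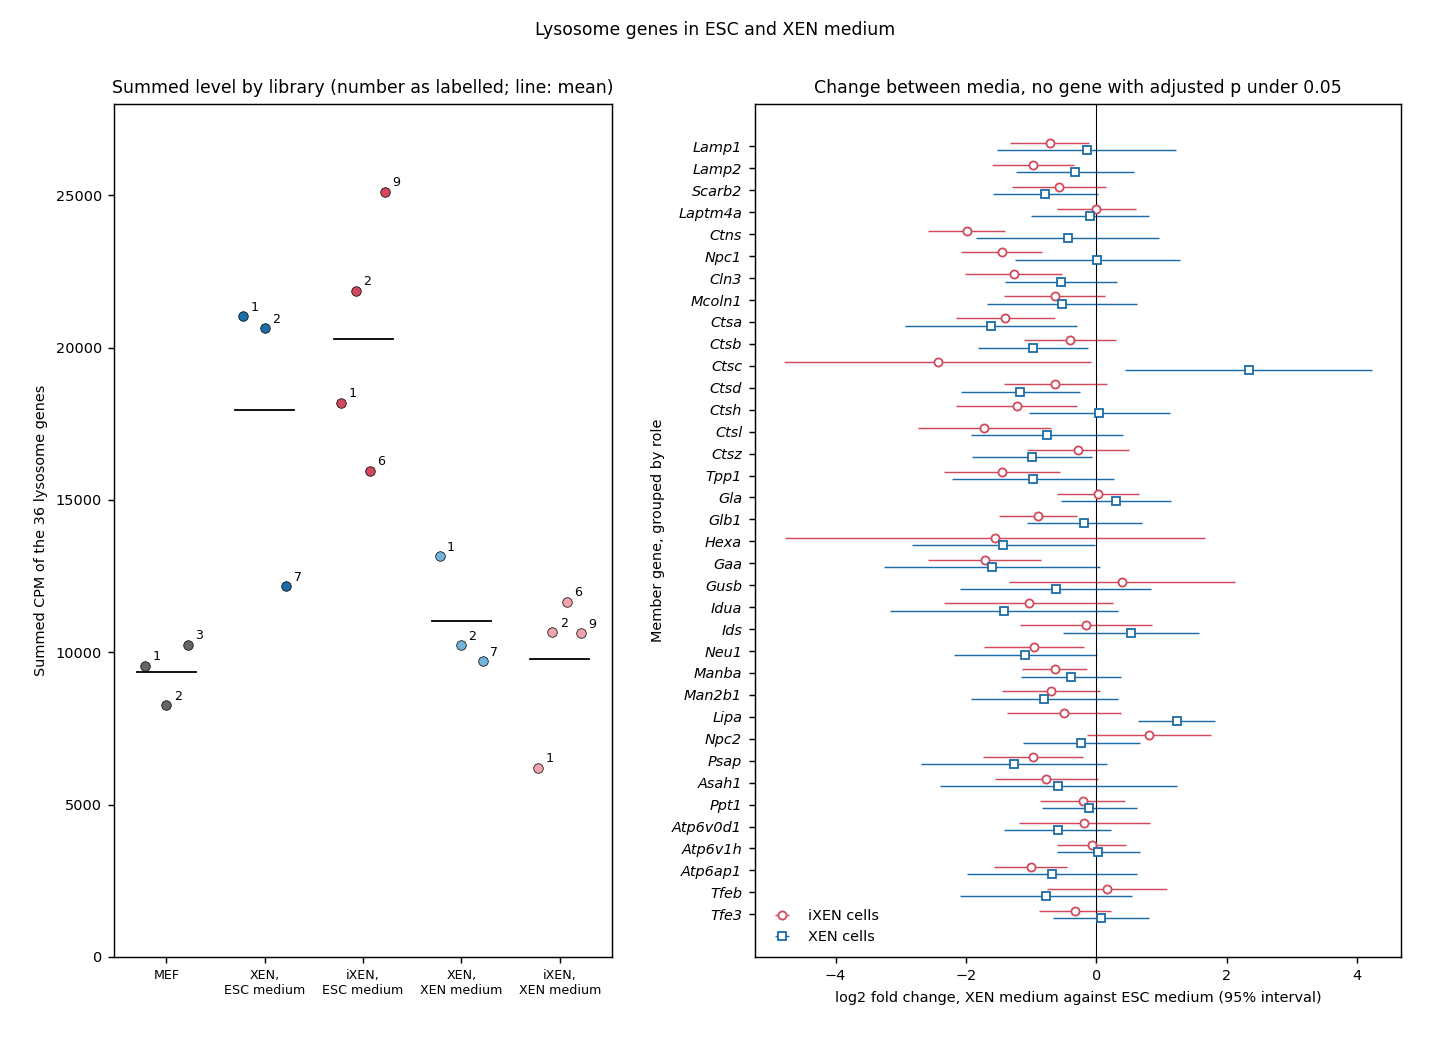
Left, summed CPM of the 36 lysosome genes in each library (numbers as in the labels, lines for group means, axis from 0). Right, log2 fold change of each gene for XEN against ESC medium with 95% intervals in iXEN (red circles) and XEN cells (blue squares); 32 of 36 values are negative in iXEN and 28 in XEN cells, and none has an adjusted p under 0.05.

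Whether the medium acted differently on iXEN and XEN cells was tested as an interaction, which no member passed (0% of all genes did; 4 members, beside 14.8% of all genes, had an unadjusted p under 0.05). The widest difference was that of Ctsc, which was higher in XEN medium in XEN cells (2.33, 95% interval 0.44 to 4.23) and lower in iXEN cells (-2.43, -4.79 to -0.08). The interaction was -4.77 (95% interval -8.14 to -1.41, adjusted p = 0.24 in edgeR and 0.0375 in DESeq2). Ctns and Npc1, with interactions of -1.57 and -1.48, and Lipa, with -1.74, had adjusted p-values of 0.283, 0.279 and 0.222.

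No member passed between iXEN and XEN cells in either medium, where 0% of all genes passed. In ESC medium the unadjusted p was under 0.05 for Npc1 (1.23, 95% interval 0.09 to 2.37) and Npc2 (-1.0, -1.70 to -0.30), beside 13.7% of all genes. The same held in XEN medium for Ctsc (-2.99, -5.48 to -0.49), Glb1 (-0.77, -1.47 to -0.08) and Lipa (-1.10, -1.83 to -0.37), beside 4.1% of all genes. With intervals of this width likeness of the lines is not shown: that of Ctsl, for example, ran from -0.81 to 1.47 in ESC medium and from -1.59 to 0.31 in XEN medium.

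Other genes of the pathway, in lists written down beside the members, were read in iXEN cells in ESC medium against MEF. All shares of these lists are to be read beside the 46.7% of all genes that passed in this comparison (20.8% higher, 25.9% lower). Of 27 other hydrolases, 11 rose and 5 fell, 59.3% in all. The phosphatase Acp5 rose from 2.66 ± 0.605 CPM (SD, n = 3) to 19.8 ± 11.9 CPM (SD, n = 4), a log2 fold change of 2.92. The asparaginyl protease Lgmn rose by 2.47 and the acid DNase Dnase2a by 1.99. The fall of cathepsins Ctss, Ctsk and Ctso stood against the rise of Ctsh and Ctsl. Ctss, also in the macrophage marker list, was at 6.74, 12.1 and 15.3 CPM in MEF and had 3 counts over the 4 iXEN libraries, a ratio of 457 (95% counting interval 156 to 2221, counting error only). Ctsk, the collagen-degrading cathepsin, fell by 6.86 on the log2 scale and Ctso fell by 5.65.

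Of 17 other V-ATPase genes tested (20 listed), 8 rose and 2 fell (58.8%, beside 46.7% of all genes). Atp6v0a4, the a4 isoform of the membrane sector known from kidney, rose by 4.05 (SE 0.44, adjusted p = 0.000147), Atp6v0a1 by 2.26 and the proteolipid subunit Atp6v0b by 1.60. Atp6v0d2, the isoform of Atp6v0d1 used in osteoclasts and macrophages, had 220 counts over the 3 MEF libraries and 1 over the 4 iXEN libraries, a ratio of 298 (95% counting interval 52.9 to 11810, counting error only). Atp6v0e2 fell by 2.33 on the log2 scale.

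Of 16 other membrane proteins, 43.8% passed, below the 46.7% of all genes. Of these, 6 rose, among them the sialic acid exporter Slc17a5 (1.69), Ostm1 (1.61) and its partner, the chloride transporter Clcn7 (1.05), and 1 fell, the transporter Abca2 (-1.83). Of 9 genes of enzyme sorting, 6 rose and 0 fell (66.7%). They include both genes of the phosphotransferase that adds the mannose 6-phosphate tag, Gnptab (1.48) and Gnptg (1.88), and the adaptor Gga2 (1.85). The median log2 fold changes were 0.47 for the hydrolases, 0.79 for the V-ATPase genes, 0.39 for the membrane proteins and 0.96 for sorting. Over these 4 lists, 31 of 69 genes rose and 8 fell (56.5%, beside 46.7% of all genes). Against the same MEF libraries, 19 rose and 6 fell in XEN cells in ESC medium (36.2%, beside 25%). In XEN medium the shares were below those of all genes: 20 rose and 7 fell in XEN cells (39.1%, beside 47.5%), and 14 rose and 6 fell in iXEN cells (29%, beside 32.6%).

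Genes of nutrient sensing and autophagy moved less as groups, with medians of 0.01 and -0.04. In both lists 29.4% of the genes passed, below the 46.7% of all genes. Of 17 genes of nutrient sensing and TFEB control, 4 rose and 1 fell. Tfec, a relative of TFEB, was at 0.426, 0.640 and 0.589 CPM in MEF and 24.3, 27.9, 5.12 and 16.3 in iXEN cells (5.08, SE 0.65, adjusted p = 0.000343). Folliculin (Flcn) and its partner Fnip2, which act on the Rag GTPases, rose by 1.93 and 1.39, and the GTPase Rraga fell by 1.0. Of 17 autophagy genes, 3 rose, namely Gabarapl2 (1.5), Atg16l1 (1.02) and Becn1 (0.65), and 2 fell, Wipi1 (-1.48) and Gabarapl1 (-1.25).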

How the data were processed

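The authors deposited whole-number read counts per gene symbol for each library, and the submitters' processing notes name HTSeq 0.6.1 as counter beside FastQC 0.11.3, Trimmomatic 0.32, TopHat2 2.0.12 and build mm9. Neither annotation nor strand setting is given in the sources used here, so overlapping genes and genes with near-identical copies are uncertain. Lines of the counter itself (20.8% to 33.1% of a file) entered neither library sizes nor tests.

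The members and gene lists were chosen with earlier results of these data known. Each of the 9 comparisons was fitted with edgeR 4.0.16 (R 4.3.3) over the libraries compared only, after filterByExpr (minimum count 10, minimum total 15) and TMM scaling (factors 0.863 to 1.16), with the two-sided quasi-likelihood test and Benjamini-Hochberg adjustment over all genes tested at 0.05. All 36 members passed the filter in every comparison. SE was computed as the absolute log2 fold change over the square root of the F value, and 95% intervals use the fit's degrees of freedom. CPM use TMM factors over all 17 libraries. The fits for iXEN and XEN cells in ESC medium against MEF and for iXEN cells between media were also run on simulated counts. These counts were drawn with the spread fitted to the same data. Their outcome is not given here, and no result rests on them. Libraries of a group differed by chi-square values of 43.8 to 1229 per degree of freedom, so no library appears to be deposited more than once within a group. Pairs of libraries from different groups were not examined in this way.

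CPM in every library were given for Lamp1, Tfeb and Tfe3 and, per role, for up to 3 members with the largest absolute log2 fold change among those called in iXEN cells in ESC medium or XEN cells in XEN medium against MEF. Of other lists, up to 3 genes each way were named by the same measure in iXEN cells in ESC medium. Ids, Hexa, Gusb and Lipa were given per library outside this rule, after their values were seen. Same-numbered XEN libraries in the 2 media deviated together from their group means (correlations 0.24, 0.377 and 0.635 over genes, pseudocount 2), and were taken as pairs because each exceeded 0.1. XEN 2 in ESC medium correlated more with XEN 1 in XEN medium (0.428) than with its own number, and the labels do not say what a number marks. A fit with the number as a block gave 0 calls there too. Those of iXEN cells did not all do so (0.144, 0.181, 0.123 and -0.0344). Alternatives were RLE factors, library size only, no filter, DESeq2 1.42.0, 1 fit over all groups, the block, leaving out each library, and, added after seeing the data, leaving out 3 libraries with collagen transcripts (XEN 1 in ESC medium, iXEN 2 and 9 in XEN medium) or XEN 7 in both media.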

Additional observations from a re-analysis of the deposited data

Results flagged for a closer look

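Gusb was at 56.8 CPM in iXEN 2 in XEN medium and at 12.1 to 15.3 CPM in the other 3 libraries of that group, a gap that Dixon's test picks out. This library also had 2406 CPM of fibroblast markers, and MEF were at 56.4, 68.1 and 86.1 CPM. Whether these go together was not tested.

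Ids was at 36.7 CPM in iXEN 1 in XEN medium and at 14.5 to 15.9 CPM in the others, picked out by the same test. Chance alone picks out about 1 in 20 groups, and 72 groups of 4 libraries were examined for the 36 genes, of which these 2 were picked.

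The change of Ctsc between media differed between iXEN and XEN cells by -4.73 on the log2 scale in DESeq2 (adjusted p = 0.0375). Ctsc was higher in XEN medium in all 3 XEN numbers and lower in all 4 iXEN numbers, although the iXEN numbers are not shown to pair the libraries. The iXEN groups overlapped, with iXEN 6 at 19.4 CPM in ESC medium and iXEN 2 at 47.6 CPM in XEN medium. The edgeR value was -4.77 (adjusted p = 0.24), and the fits that left out a library or changed a setting gave -5.91 to -4.27.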

How the results depend on the processing

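Counts are of the 36 genes called. Within 1.5 times of the count reported were all alternatives for iXEN cells in ESC medium against MEF (27). With 1 library left out they gave 20 to 29 (34.4% to 56.4% of all genes). The same held for iXEN against XEN cells in either medium (0 throughout, with at most 3.69% of all genes). For XEN cells in ESC medium against MEF (14), the replicate block gave 8 (9.31% of all genes). Leaving out 1 library gave 2 to 23 (2.57% to 41.8%). For iXEN cells in XEN medium against MEF (10), the replicate block gave 0, as it did for all genes. Leaving out 1 library gave 5 to 13 (12.5% to 39.4% of all genes), and leaving out the libraries with collagen transcripts 16 (51.8%). For XEN cells in XEN medium against MEF (18), 1 fit over all 5 groups gave 10 (31.2% of all genes). Leaving out 1 library gave 11 to 21 (26.9% to 60.8%). MEF share only a number with the other lines, so the block against MEF has no basis in the design. Between media, DESeq2 gave 10 in iXEN cells (11.9% of all genes) and 1 in XEN cells (Lipa, higher in XEN medium, with 0.539%). In iXEN cells, 1 fit over all 5 groups gave 4 (2.16%), and leaving out 1 library gave 0 to 6 (at most 3.12%). The interaction gave 1 in DESeq2 (3.28% of all genes). The block changed no other call count by over 1.5 times, and the iXEN numbers, which are not shown to pair the libraries, gave 0 with it. No called gene reversed its direction. Against MEF, 33 of the gene values under alternatives lost their call for iXEN cells in ESC medium, 54 for XEN cells in ESC medium, 28 for iXEN cells in XEN medium and 46 for XEN cells in XEN medium. In the same order, 5, 28, 12 and 13 gene values gained a call. Between media, 22 gained a call in iXEN cells. Library size alone moved the median of all genes by 0.121 between media in XEN cells and by -0.165 in the interaction. The causes were not tested. At 20071567 or more counts per library, depth limits only the lowest values, such as the 4 counts of Hexa in iXEN 1 and the 15 of Ctsc in iXEN 9 in XEN medium.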

Other observations

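The members lie on 17 chromosomes (RefSeq), and 5 of them, Lamp2, Gla, Ids, Atp6ap1 and Tfe3, lie on the X chromosome. In iXEN cells in ESC medium against MEF, Lamp2 (-1.25) and Ids (-1.54) fell and Atp6ap1 (0.76) rose on the log2 scale. Gla (-0.14, adjusted p = 0.638) and Tfe3 (0.43, adjusted p = 0.0608) did not pass. Over all genes tested, 25.9% fell and 20.8% rose in this comparison. The share among all X-linked genes was not computed, and position on the X chromosome was not tested.

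Without Ctsl, the summed CPM of the other 35 members was 7688 to 9521 in MEF. It was 11191 to 16090 in the iXEN libraries of ESC medium, so the groups remained apart. In XEN cells in ESC medium the sum without Ctsl was 8278 to 15358 CPM, lowest in XEN 7 and overlapping with MEF.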
